A study of Homo sapiens with 3 samples.

Results

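CRY1 binding sites at the 3 period genes PER1, PER2 and PER3 were described from a list of CRY1 peaks in C4-2 cells. A peak was a member when its summit, the base of highest read pileup, lay inside the gene body of a period gene or within 50 kb of it in the GENCODE annotation of GRCh37 (hg19). This rule took 17 of the 2551 peaks, of which 10 were at PER1, 4 at PER2 and 3 at PER3. The 17 peaks made up 0.666% of the list and covered 13542 bases, or 1.74% of the bases in peaks.

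CRY1 was mapped by ChIP-seq, the sequencing of immunoprecipitated chromatin, in 2 replicate libraries, with 1 input library of chromatin that was not immunoprecipitated. C4-2 is an established human castration-resistant prostate cancer cell line, here grown in hormone-proficient medium with the vehicle label and no further treatment or genotype. All 3 libraries shared these conditions, so the data hold no comparison between treatments. The authors called peaks once on the combined replicates, and no peak therefore has a replicate error or a depth of its own.

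The period proteins and the cryptochromes are the repressor arm of the circadian clock. CLOCK and BMAL1 bind the E-box (CACGTG) and related sequences in the promoters of clock genes, PER and CRY genes included, and drive their transcription. PER and CRY proteins then accumulate, enter the nucleus together and repress CLOCK and BMAL1, so CRY1 reaches DNA mainly through other proteins. PER1 and PER2 are core repressors of this loop, and PER3 is a modulator of the same family.

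The stretches of sequence below, 1 for each gene and taken from the GRCh37 reference and not from the cells, show how E-boxes were placed in the strongest peak of each gene. Each is printed 5′ to 3′ on the strand of its gene. Capitals mark the E-box CACGTG in the PER1 and PER3 sequences and the D-box TTATGTAA, the element bound by DBP, TEF, HLF and NFIL3, in the PER2 sequence. The PER1 sequence is the 101-bp window around the summit of PER1 peak 8 at chr17:8055873-8055973 (minus strand), with 1 E-box near the summit. The PER2 sequence is the same window of PER2 peak 1 at chr2:239197546-239197646 (minus strand), with no E-box. The PER3 sequence is the stretch of PER3 peak 2 that holds both of its E-boxes, at chr1:7843917-7843996 (plus strand), upstream of the summit.
PER1 peak 8: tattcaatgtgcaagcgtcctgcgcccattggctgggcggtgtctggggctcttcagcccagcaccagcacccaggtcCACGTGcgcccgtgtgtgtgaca
PER2 peak 1: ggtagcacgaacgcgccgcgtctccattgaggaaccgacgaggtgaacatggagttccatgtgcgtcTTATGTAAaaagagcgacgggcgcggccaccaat
PER3 E-box pair: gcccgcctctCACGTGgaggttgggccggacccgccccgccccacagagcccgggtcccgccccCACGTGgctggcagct

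PER1 lies at chr17:8043790-8059824 on the minus strand (ENSG00000179094) and has 19 annotated transcription start sites (TSS). PER2 lies at chr2:239152685-239198743 on the minus strand (ENSG00000132326) with 5 TSS, and PER3 at chr1:7844351-7905237 on the plus strand (ENSG00000049246) with 8 TSS. Peaks were numbered along each gene in the direction of transcription. Strength is given as fold enrichment, the linear ratio by which reads at a summit exceed the local background of the caller. Ranks are among all 2551 peaks.

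A summit in the gene body or within 50 kb was found for 22.1% of the 20163 protein-coding genes (4464 genes), which is the background for the presence of a peak at each period gene. Fewer genes held as many: 3.27% had 3 or more, 1.34% had 4 or more and 4 genes had 10. The 4 genes with 10 were PER1, VAMP2, BORCS6 and ENSG00000263620, which lie near each other on chromosome 17 in overlapping loci. Close genes share peaks in such counts, and the number of summits at PER1 does not belong to PER1 alone. A stronger strongest peak was found at 7 protein-coding genes for PER2, 76 for PER3 and 87 for PER1.

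**Figure D1:**
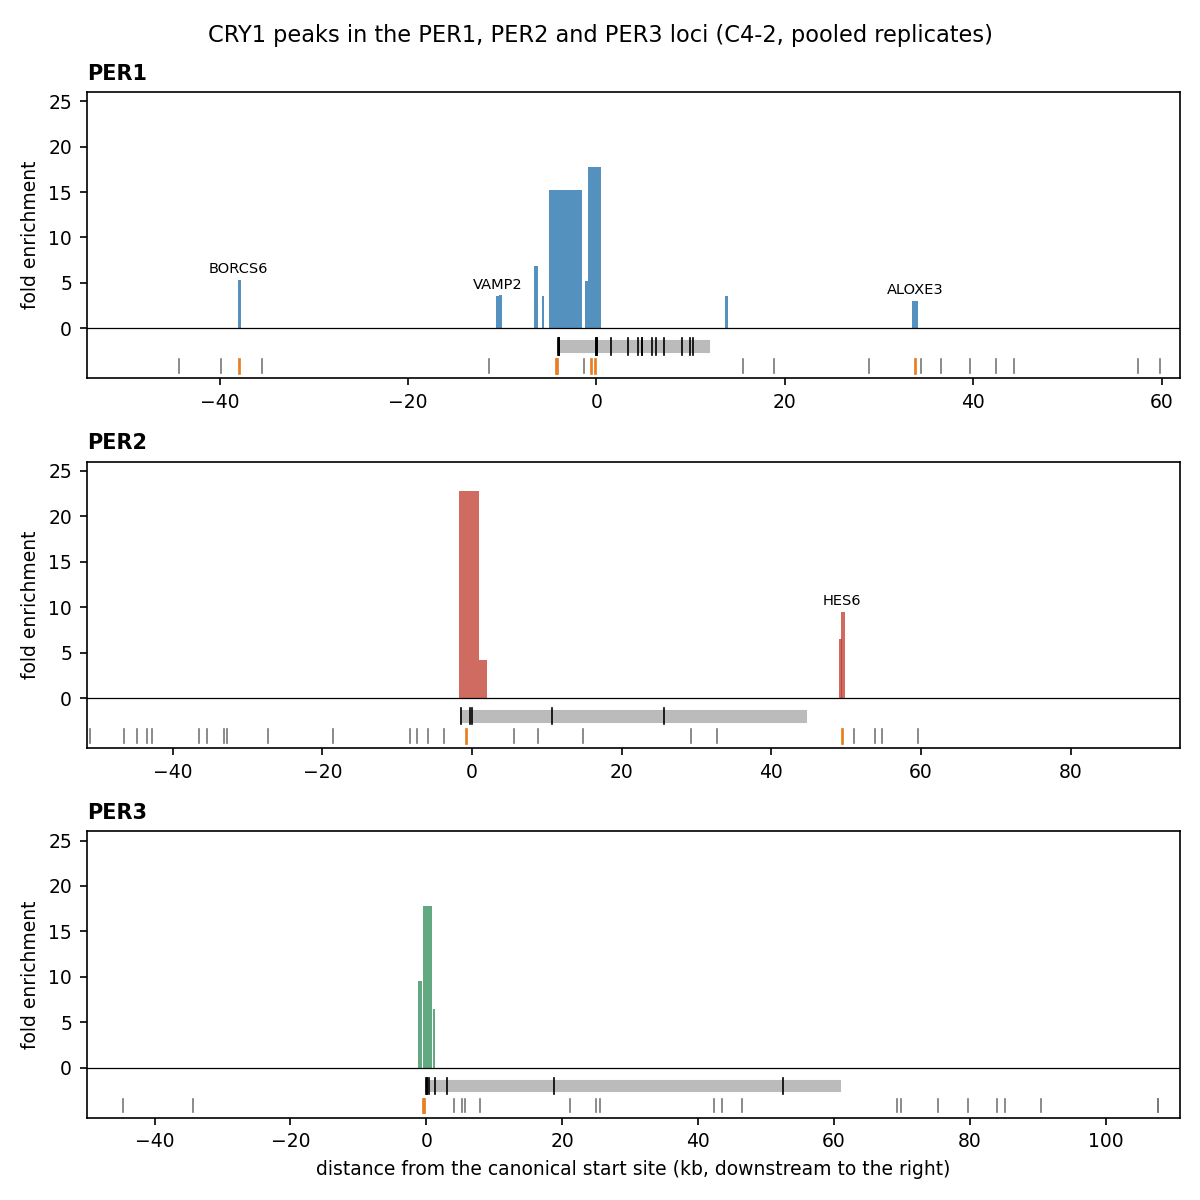
CRY1 peaks across the 3 loci, with distance from the canonical TSS in kb on the x axis and fold enrichment on the y axis. Bars span each peak (very narrow peaks are drawn slightly wider so that they show), the grey box is the gene body with annotated TSS as black lines, and ticks below are E-boxes, orange inside a peak and grey outside. Names mark the gene whose TSS was nearest where it was not the period gene. The high bars sit at the gene starts, and 10 of the 70 E-boxes are orange.

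PER2 held the strongest of the 17 peaks. PER2 peak 1 (chr2:239196378-239199005) was 2628 bp wide, with 22.8-fold enrichment and −log10 q at 88.5. It ranked 3 by fold enrichment, 1 by −log10 q and 8 by width. Its summit lay in an intron of the PER2 transcript with the outermost TSS, 129 bp upstream of the nearest TSS, 345 bp upstream of the canonical TSS and 1147 bp downstream of the outermost TSS. The peak spanned all 3 of these starts. PER2 peak 2 (chr2:239195291-239196294) followed after a gap of 83 bases and was far weaker, with a fold enrichment of 4.15 over 1004 bp. Its summit lay in an intron, 1024 bp downstream of the canonical TSS.

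The other pair of summits counted for PER2 lay beyond its 3′ end at HES6, which encodes a member of the HES family. PER2 peak 3 (chr2:239147997-239148243) had a fold enrichment of 6.53 and a summit in a HES6 intron, 102 bp downstream of a HES6 TSS. PER2 peak 4 (chr2:239147472-239147908) had 9.49, with its summit in exon 4 of the canonical HES6 transcript, a coding exon, 486 bp downstream of a HES6 TSS. Their edges were 88 bases apart. By nearest TSS these peaks belonged to HES6 and not to PER2.

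PER3 held 3 peaks, all at its start, in a cluster of 2462 bp with gaps of 94 and 87 bases. PER3 peak 2 (chr1:7843822-7845193) was 1372 bp wide, with 17.8-fold enrichment and −log10 q at 77.8, and ranked 20 by fold enrichment and 7 by −log10 q. Its summit lay 1 bp upstream of the canonical TSS, which is also the outermost, and 30, 139, 413 and 1233 bp upstream of the next TSS. PER3 peak 1 (chr1:7843124-7843727) had a fold enrichment of 9.59 and a summit 752 bp upstream of the canonical TSS, in intergenic sequence. PER3 peak 3 (chr1:7845281-7845585) had 6.45, with its summit in an intron 134 bp upstream of an internal TSS and 1098 bp downstream of the canonical one. The transcript of that internal TSS is annotated as a retained intron, and the nearest TSS of a protein-coding transcript lay 686 bp upstream of the summit. The strongest peak was thus flanked on both sides by weaker ones, and PER3 was the only one of the 3 genes with every summit nearest to its own TSS.

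PER1 had a different layout, with a high peak at each of the groups of start sites near its 5′ end. PER1 peak 8 (chr17:8055180-8056590) covered the canonical start over 1411 bp, with 17.8-fold enrichment, −log10 q at 61.8 and a rank of 23 by fold enrichment. Its summit lay 170 bp upstream of the nearest TSS and 201 bp upstream of the canonical TSS, in an intron of transcripts that start upstream. PER1 peak 6 (chr17:8057235-8060737) covered the upstream starts over 3503 bp and was the second widest peak of the list. It had 15.2-fold enrichment, −log10 q at 72.5 and ranks of 50 and 13 by these measures. Its summit lay 16 bp downstream of the outermost TSS, in an exon of a transcript that is not the canonical one. The transcript of that TSS is not annotated as protein-coding. The same summit lay 85, 130 and 135 bp upstream of the next TSS, which are of protein-coding transcripts, and 4086 bp upstream of the canonical TSS. The order of the pair depended on the measure: peak 8 was higher in fold enrichment, and peak 6 in −log10 q.

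Weaker peaks filled the space around these. Within PER1, peak 7 (chr17:8056853-8056941) was 89 bp wide with a fold enrichment of 5.19. Upstream of the gene, peak 4 (chr17:8061914-8062369) had 6.84 and lay 2411 bp from the outermost TSS, and peak 5 (chr17:8061386-8061529) had 3.57 and lay 1564 bp from it. Peaks 4 to 8 formed a cluster of 7190 bp with no gap above 648 bases. The window of peak 5 was mostly repeated sequence, since 59 of its 70 stretches of 32 bases occurred elsewhere in the genome (84.3%). Whether the reads of this peak matched more than 1 place was not tested. In the windows of the other 16 summits no such stretch recurred.

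The remaining 5 summits of the PER1 locus were weak or close to other genes. PER1 peak 1 (fold enrichment 5.28) lay 199 bp upstream of BORCS6, which encodes a subunit of a lysosome-positioning complex. Peaks 2 (3.51) and 3 (3.68) lay 31 and 249 bp downstream of a TSS of VAMP2, a synaptic vesicle fusion protein. Peak 10 (3.03) lay 60 bp upstream of a TSS of ALOXE3, an epidermal lipoxygenase. Peak 9 (3.57) was intergenic, beyond the 3′ end of PER1, and 3500 bp downstream of its nearest annotated TSS. Only 6 of the 10 summits had a PER1 TSS as the nearest, against 2 of 4 at PER2 and 3 of 3 at PER3.

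**Figure D2:**
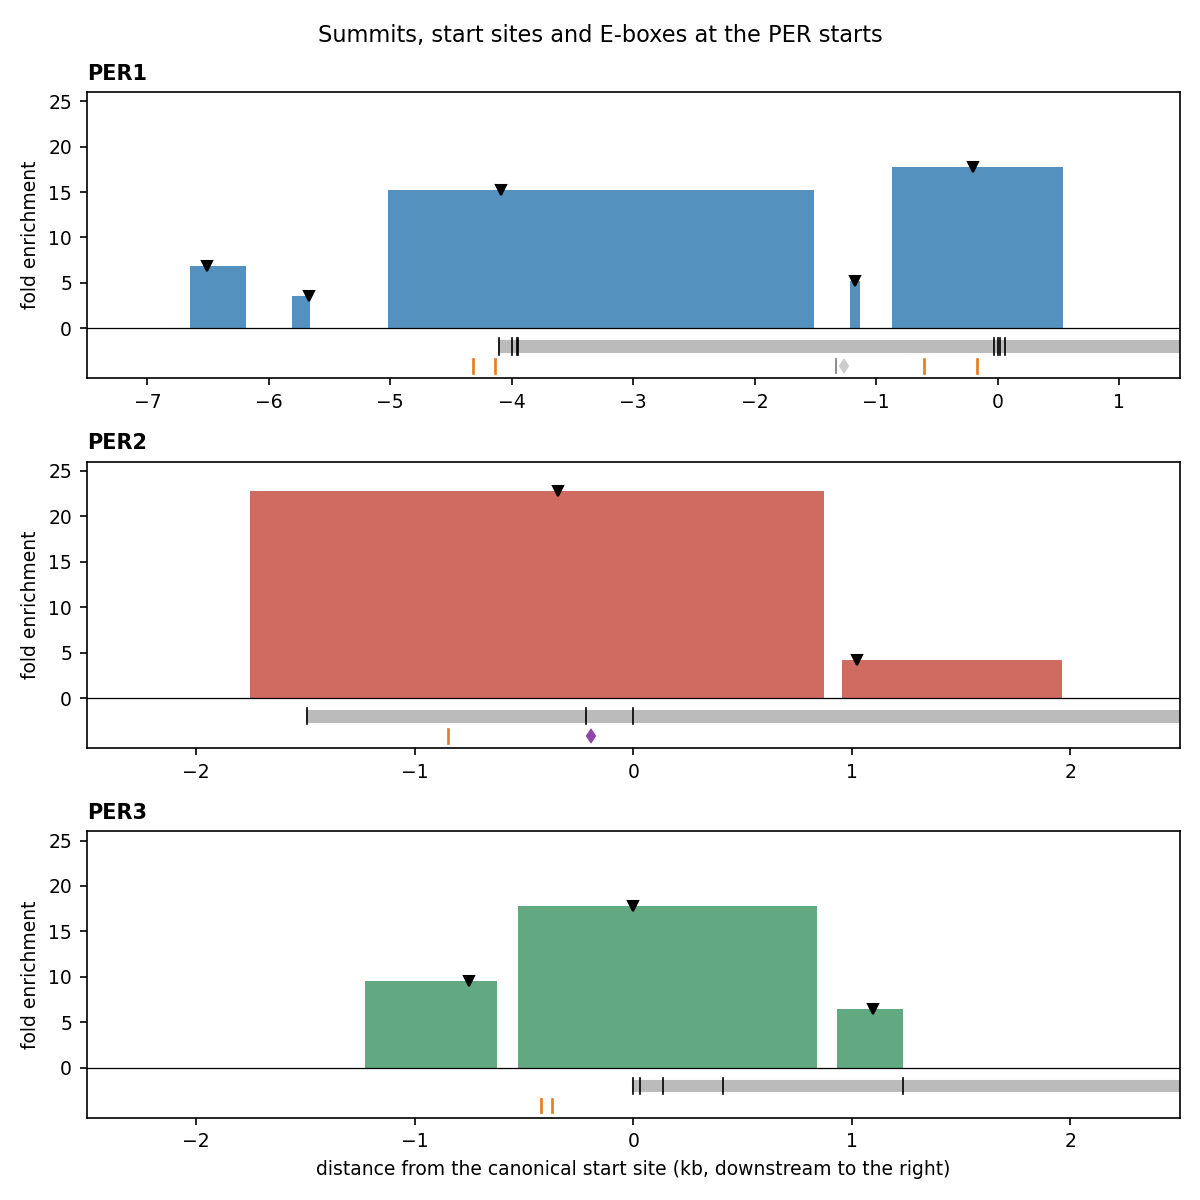
The starts of the 3 genes at larger scale, with distance from the canonical TSS in kb on the x axis and fold enrichment on the y axis. Bars span each peak, triangles mark summits, black lines on the grey gene body mark TSS, orange ticks are E-boxes in a peak, grey ticks E-boxes outside, purple diamonds E′-boxes in a peak and light grey diamonds E′-boxes outside. All 7 orange ticks lie upstream of the nearest TSS, and those of PER2 and PER3 lie away from the triangles.

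The member peaks were spread over the whole range of strength. Their fold enrichment had a median of 6.45 (quartiles 3.68 and 9.59, n = 17), beside 5.18 (quartiles 4.34 and 6.63) over all 2549. Their median width was 437 bp beside 181 bp, and their median −log10 q 9.06 beside 6.02. By fold enrichment 11 of the 17 lay above the median of the list, 6 were at 9 or more and 6 were under 5. Fold enrichment ran from 3.03 to 17.8 at PER1, from 4.15 to 22.8 at PER2 and from 6.45 to 17.8 at PER3. No test was made, because a pooled list gives each peak 1 value and peaks of 1 locus are not replicates.

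**Figure D3:**
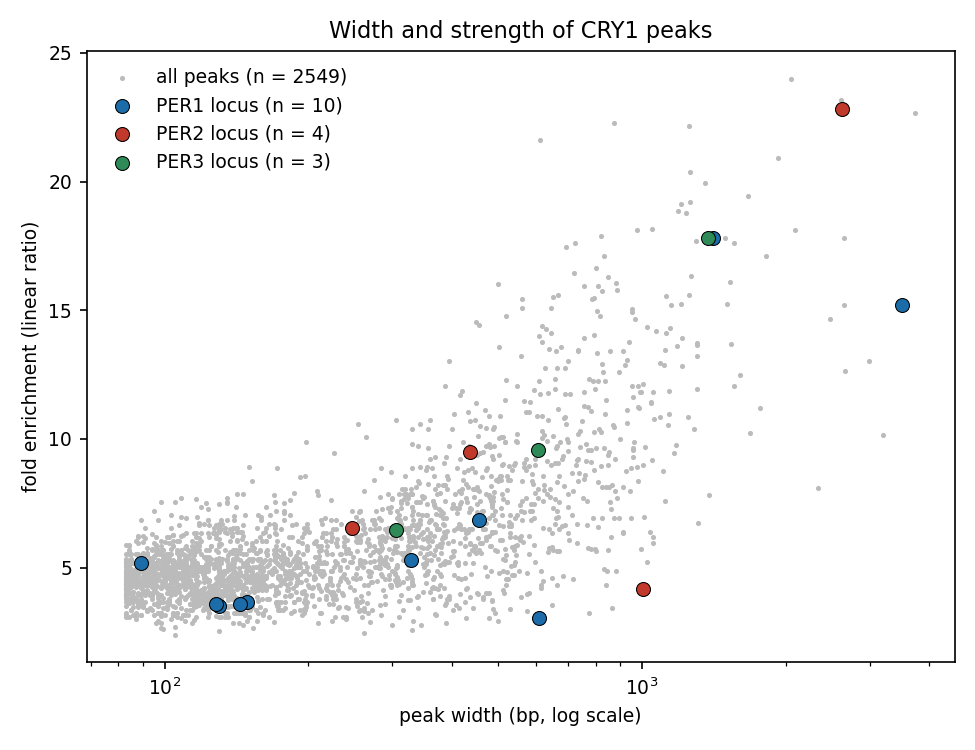
Peak width in bp (log scale) on the x axis and fold enrichment on the y axis for the 2549 peaks on chromosomes 1 to 22 and X (grey) and the members in colour by locus. The 4 members above 15 are all wider than 1000 bp, and PER2 peak 2 and PER1 peak 10 are wide for their low fold enrichment.

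E-boxes were counted on both strands within 50 bp of each summit, a window of 101 bp. Of all 2549 summits 47.8% (1218) had CACGTG in this window, and of the promoters of 19881 protein-coding genes, taken from 250 bp upstream to 50 bp downstream of the canonical TSS, 8.76% did. Of the 17 member summits 4 had one (23.5%, Wilson 95% interval 9.56 to 47.3%), which was 3 of 10 at PER1, 1 of 4 at PER2 and 0 of 3 at PER3. The interval covers the counting of summits only, and summits of the same locus are not independent. The 4 were PER1 peaks 1, 8 and 10 and PER2 peak 4. Of these only PER1 peak 8 had a period gene TSS as its nearest, and the others lay at BORCS6, ALOXE3 and HES6.

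The same count was made by strength. At a fold enrichment of 9 or more 2 of 6 member summits had an E-box, beside 67.4% of all 282 such summits. From 5 to 9 it was 1 of 5 beside 54.0%, and under 5 it was 1 of 6 beside 36.2%. Among peaks of 15 or more, 1 of the 4 members had an E-box at the summit, beside 32 of the 51 others (62.7%). In the whole peak, however, all 4 of these members held at least 1 E-box, beside 41 of the 51 others (80.4%). Over the 17 members 7 peaks held an E-box anywhere (41.2%), beside 57.4% of all peaks. The median distance from summit to nearest E-box was 405.5 bp for the members and 55.5 bp for all summits.

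**Figure D4:**
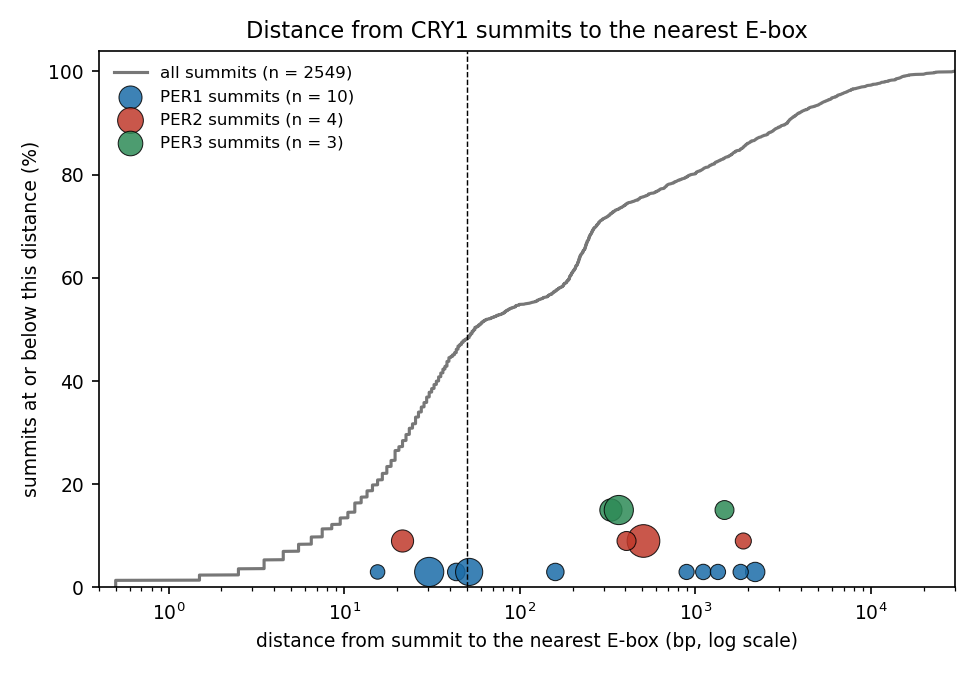
Distance from each summit to the nearest E-box in bp (log scale) on the x axis. The grey curve gives the percentage of all 2549 summits at or below each distance, the points are member summits (height only separates the genes, size grows with fold enrichment) and the dashed line is at 50 bp. The largest points of PER2 and PER3 lie at 506.5 and 366.5 bp, and that of PER1 at 30.5 bp.

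The E-boxes of the strong peaks lay upstream of the starts, and 26 bases around each are printed here 5′ to 3′ on the gene's strand to show their positions and flanks. Capitals mark the E-box, or the E′-box CACGTT in the last PER2 sequence. Distances run from the middle of the site to the nearest TSS of the gene. In PER1 peak 8 the proximal site (chr17:8055890-8055895, minus strand) lay 139.5 bp upstream, and the distal site (chr17:8056325-8056330) lay 574.5 bp upstream. In PER1 peak 6 the proximal site (chr17:8059857-8059862) lay 35.5 bp upstream of the outermost TSS, and the distal site (chr17:8060041-8060046) 219.5 bp upstream. In PER2 peak 1 the E-box (chr2:239198100-239198105, minus strand) lay 635.5 bp upstream, but nearly midway between starts, 640.5 bp downstream of the outermost TSS. The E′-box of that peak (chr2:239197443-239197448) lay 21.5 bp downstream, but 194.5 bp upstream of the canonical TSS. In PER3 peak 2, whose pair is printed above, the E-boxes (chr1:7843927-7843932 and chr1:7843981-7843986) lay 421.5 and 367.5 bp upstream, with 48 bases between them.
PER1 peak 8 proximal: cacccaggtcCACGTGcgcccgtgtg
PER1 peak 8 distal: ccaccggtcaCACGTGgacccttaac
PER1 peak 6 proximal: gcccctctctCACGTGtatctctccc
PER1 peak 6 distal: agaccgccggCACGTGtaccctacag
PER2 peak 1 E-box: aaaattgcaaCACGTGgtctcaaaaa
PER2 peak 1 E′-box: cgcgcgcggtCACGTTttccactatg

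Relative to the summits, these sites lay at varied distances. In PER1 peak 8 the proximal site lay 30.5 bp downstream of the summit and the distal site 404.5 bp upstream. In PER1 peak 6 the sites lay 51.5 and 235.5 bp upstream of the summit, so the proximal one fell just outside the window of 50 bp. The E-box of PER2 peak 1 lay 506.5 bp upstream of its summit, and the E′-box 150.5 bp downstream. The nearer E-box of PER3 peak 2 lay 366.5 bp upstream of its summit. PER1, with 2 pairs, therefore held 4 of the 7 E-boxes at period gene starts, and its main summit was the only one of the 3 with an E-box in the window.

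Every E-box within 1 kb of a period gene TSS lay in a CRY1 peak: 4 at PER1, 1 at PER2 and 2 at PER3, or 7 of 7 (Wilson 95% interval 64.6 to 100%). Of all E-boxes within 1 kb of a protein-coding TSS 5.41% did (1045 of 19314), and near a TSS with a summit within 1 kb 65.9% did (1042 of 1582). All 7 lay upstream of the nearest TSS, with the PER2 site almost as close to another TSS, beside 683 of those 1042 (65.5%). Over the whole loci 10 of 70 E-boxes were in a peak (14.3%, interval 7.95 to 24.3%), which was 6 of 21 at PER1, 2 of 26 at PER2 and 2 of 23 at PER3. These include the sites in PER1 peaks 1 and 10 and PER2 peak 4, which were nearest to BORCS6, ALOXE3 and HES6. Over all protein-coding loci the share of E-boxes in a peak was 0.886%. Only 22.1% of protein-coding genes had a summit in such a locus, whereas every period gene did. The locus shares are therefore not on an equal footing. The nearest E-boxes outside a peak lay 1305.5 bp from a TSS at PER1, 1794.5 bp at PER2 and 1062.5 bp at PER3. The site left out at PER1 lay only 159.5 bp from the summit of the narrow peak 7. The E′-box did not share the pattern of the E-box. Within 1 kb of a period gene TSS 1 of 5 E′-boxes lay in a peak, and over the whole loci 2 of 66 (3.03%). Intervals and shares here cover the counting of sites only, and sites of 1 promoter are not independent.

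One member held a tandem pair at its summit, counted as any 2 sites, each an E-box or an E′-box, with 6 or 7 bases between them. This pair, an E′-box and an E-box, lay in PER2 peak 4, that is, in HES6, at 9.5 and 21.5 bp downstream of the summit. The 30 bases around it (chr2:239147796-239147825, minus strand) are given with both boxes in capitals.
PER2 peak 4 tandem: ggtgcaCACGTTcgtgtcCACGTGccaggc
Such a pair stood within 50 bp of 9 of the 2549 summits (0.353%) and in 12 of the 19881 promoters (0.0604%). None was found at the summits of the peaks nearest to a period gene TSS.

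Other clock-related sequences were sparse. The promoter windows, from 250 bp upstream to 50 bp downstream of the canonical TSS, were longer than the 101-bp windows around summits. Shares of promoters and of summits below are therefore not over equal lengths. The D-box TTATGTAA in the window of PER2 peak 1 occurred at 5 of all 2549 summits (0.196%) and in 0.498% of promoters. The CRE TGACGTCA and the RORE core TAGGTCA were in none of the 17 windows. Both were rare over all summits too, at 0.235% for the CRE and 0.745% for the RORE core. In promoters the shares were 2.68% and 1.3%. So few windows could hardly show either element at such shares. Among general promoter elements, the GC box GGGCGG was in 8 of 17 windows, beside 27.0% of all summits and 61.4% of promoters. The CCAAT box, spelled CCAAT, was in 3 of 17, beside 8.91% and 36.0%, and these 3 were the main peaks of PER1 (8 and 6) and PER2 (1). The window of PER3 peak 2 had no CCAAT box but 2 GC boxes, with 86.1% GC and 20 CpG dinucleotides, beside medians of 64.4% and 7 over all summits. The windows of the strongest PER2 and PER1 peaks had 57.4% and 63.4% GC.

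For the strongest peak of each gene, the 3 most similar peaks outside the 3 loci were found by distance over 4 standardised features (fold enrichment, width, E-boxes within 50 bp and distance to the nearest TSS). PER1 peak 8 had close matches at NR1D2, which encodes the clock repressor REV-ERBβ (distance 0.223), PIK3IP1 (0.282) and KLF11 (0.354). PER2 peak 1 had none as close, the nearest being at CAMKK1 (0.818), PRPS1 (0.982) and TRAPPC6A (1.02). The peak named by PRPS1, the nearest protein-coding gene at 26939 bp, lay 156 bp from a TSS of a gene that is not protein-coding. PER3 peak 2 was nearest to peaks at NPM1 (0.635), ESYT1 (0.976) and HLF (1.46). HLF is a D-box binding clock output factor. All 6 matches of PER2 and PER3 had no E-box within 50 bp of the summit, a property that the measure used.

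Of 24 other clock genes 15 had a summit in the gene body or within 50 kb (62.5%), beside the 22.1% of all protein-coding genes. Among the repressors, NR1D1 had 8 summits, CRY2 5, BHLHE41 5, BHLHE40 3, and CRY1 itself, NR1D2 and CIART 2 each. Among the D-box factors, TEF and HLF had 4 and DBP 2, whereas NFIL3 had none. Of the activators BMAL1, BMAL2, CLOCK and NPAS2 none had a summit, nor had RORA and RORB. Casein kinases CSNK1D and CSNK1E, which phosphorylate PER proteins, had 1 each. The strongest of these peaks had the TSS of its own clock gene as the nearest at 10 of the 15 genes. Among those 10, NR1D1 and NR1D2 (both 17.8-fold) had the values nearest to PER3 and PER1 (both 17.8), below PER2 (22.8). At BHLHE41 (23.2) the nearest TSS was 7495 bp away and belonged to SSPN, and at CSNK1D (18.2) it was 4605 bp away and belonged to LINC01970. The strongest peaks counted for DBP, CIART and BTRC were also nearest to a TSS of another gene. Of the E-boxes within 1 kb of a TSS of these 24 genes 19 of 46 lay in a peak (41.3%), beside 7 of 7 for the period genes. These 2 shares are not on an equal footing, since 9 of the 24 genes had no summit in the locus and every period gene did. Near any protein-coding TSS with a summit within 1 kb the share was 65.9%.

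**Figure D5:**
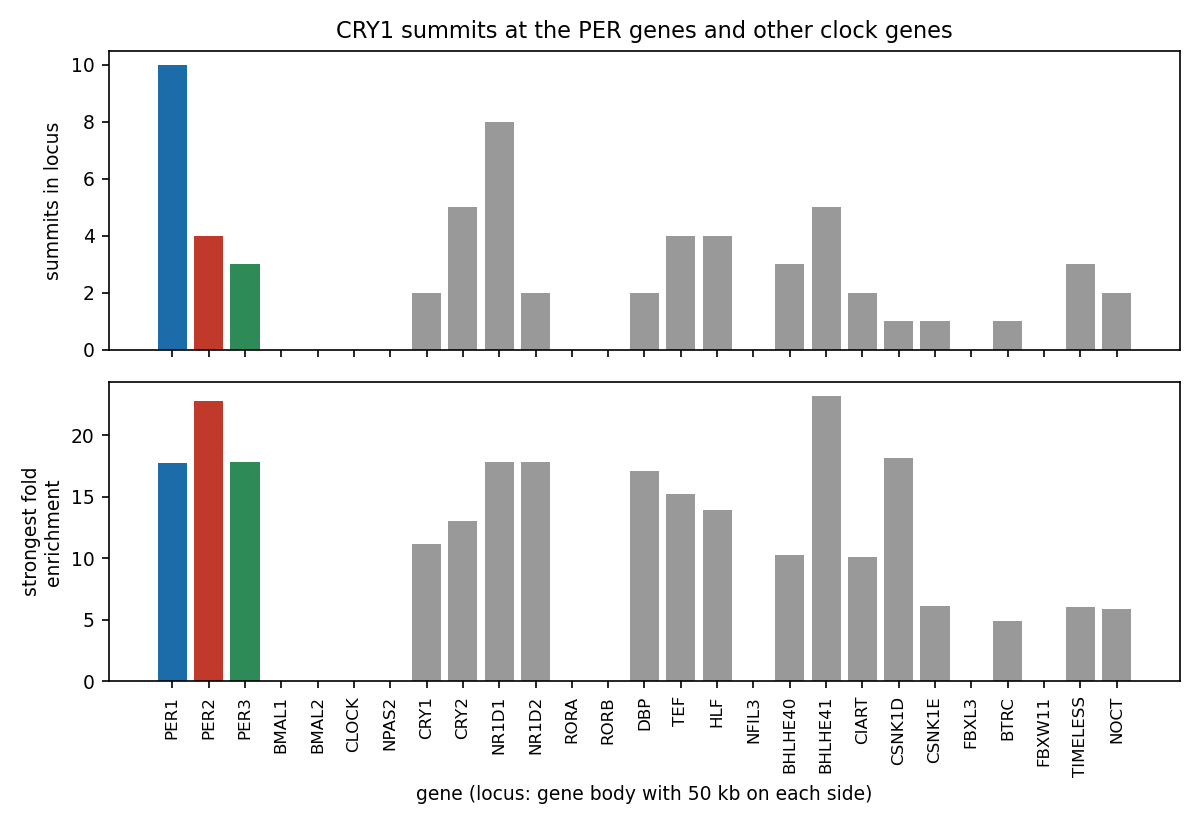
Number of summits in the gene body or within 50 kb (upper bars) and fold enrichment of the strongest of them (lower bars) for PER1, PER2 and PER3 in colour and 24 other clock genes in grey. PER1 has the most summits (10), and the strongest peak of PER2 (22.8) lies just below the highest bar, the peak counted for BHLHE41 (23.2), whose nearest TSS is that of SSPN.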

How the data were processed

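CRY1 ChIP-seq was performed in C4-2 cells in 2 immunoprecipitates and 1 input, grouped here by their titles. For the authors' list, reads were placed on hg19 by bowtie2 with default parameters, and MACS2 then called peaks from both replicates together at q < 0.05. Use of the input as control is presumed, and removal of duplicates was not stated. Each deposited peak carries the authors' score (a whole number made from −log10 q), fold enrichment (a linear ratio), −log10 q, a −log10 p that was not used, and a summit offset in bp. Depth per library is unknown from the list, and a peak seen in 1 replicate cannot be told from one seen in both. Of the columns with values per sample, 0 were left unused.

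Positions were set against GRCh37 and GENCODE release 44 mapped to it, with python 3.11.15, pandas 2.3.3, numpy 2.4.6, scipy 1.17.1, pysam 0.24.0 and matplotlib 3.10.9. The 2 peaks on unplaced contigs were left out of motif counts but kept in the ranks among all 2551 peaks. A TSS is the start of any annotated transcript, and the canonical one is GENCODE's tag. Motifs were exact matches on both strands. The script was tested on simulated data. Named genes were the members, every protein-coding gene with a TSS within 5 kb of a member summit, 24 clock genes (1 more gene of that list is not reported here), and the protein-coding genes nearest to the 3 most similar peaks. The members and lists were chosen with earlier results of these data known. Alternatives were other margins, thresholds, windows, transcript sets and the midpoint of the peak.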

Additional observations from a re-analysis of the deposited data

How the results depend on the processing

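The 17 summits became 11 at a fold enrichment of at least 5, 8 after merging peaks within 1 kb, and 11 when the nearest TSS had to be of the period gene. The last requirement was chosen after seeing the data, as was leaving out the repeated window of PER1 peak 5, which left 16 summits. The count of 10 at PER1, on which its place among genes rests, became 6 within 5 kb of the gene, 5 at a fold enrichment of at least 5, 5 after merging and 6 by nearest TSS. At PER2 it became 2 after merging or by nearest TSS, and at PER3 1 after merging. The distance from the strongest summit to the nearest TSS was −170, −129 and −1 bp at PER1, PER2 and PER3 (negative is upstream). With the canonical TSS it was −201 bp at PER1 and −345 bp at PER2, with basic transcripts −201 bp at PER1, and from the midpoint of the peak −132, −224 and 18 bp. The 18 bp at PER3 is measured from a TSS downstream of the canonical one, which gave the −1 bp. An E-box was within 50 bp of 9.09% of summits for the 11 with a period gene TSS as the nearest. Over the 17 the share was 11.8% within 25 bp of the summit and 11.8% around the midpoint, 29.4% within 100 bp and 41.2% in the whole peak, beside 29.6%, 32.4%, 54.6% and 57.4% of all summits. The median member exceeded 72.3% of peaks in fold enrichment. This was 68.1% by −log10 q, 81.4% among summits within 1 kb of a TSS, 67.2% after merging and 76.8% for the 11. The share of E-boxes in a peak went from 14.3% to 5.71% when only sites within 50 bp of a summit counted, to 8.82% with E′-boxes included, and to 29.6% within 5 kb of the gene bodies. No paired analysis was possible because peaks were called on pooled replicates with 1 input, which also leaves no replicate to omit. Depth was not known, so a site outside a peak is not shown to be unbound.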

Other observations

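The letters CACGCG, searched after the values were seen, were in the summit windows of 2 of the 17 members, PER3 peak 2 (2 sites) and PER1 peak 6 (1 site). Both windows lacked CACGTG. Over the list, CACGCG was in 279 of 2549 windows (10.9%, Wilson 95% interval 9.79 to 12.2%) and in 177 of the 1331 without CACGTG (13.3%, interval 11.6 to 15.2%).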
